A study of Anableps anableps with 8 samples.

Results

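The genes that encode subunits of the GABA-A and glycine receptors were followed across the cell classes of the retina of Anableps anableps, the four-eyed fish. Members were the rows of the deposited gene table whose symbol begins with gabra, gabrb, gabrd, gabrg, gabrr, gabrp, gabrz or glra, or is glrb, glrba or glrbb. This gave 31 of the 22934 genes. The 27 described comprise 7 alpha, 3 beta, 3 gamma, 6 rho, 1 delta and 1 zeta gene of the GABA-A receptor, and 5 alpha and 1 beta gene of the glycine receptor. No gene beginning with gabrp was listed. Of their symbols 4 occur as 2 copies, and their identifiers are printed. No source used here says how reads of near-identical copies were divided, so values of a single copy are uncertain to that extent.

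GABA-A and glycine receptors are chloride channels built from several subunits, and they carry most fast inhibition in the retina. Horizontal and amacrine cells are the main inhibitory neurons of this tissue, acting on photoreceptors, bipolar cells and ganglion cells. Subunits of the rho type form slow, sustained GABA channels that are best known from bipolar cell terminals. Beta subunits take part in most GABA-A channels, and a gamma subunit places many of them at synapses.

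The study profiled the RNA of single nuclei from whole adult retinas, barcoded by split-pool combination (Parse Biosciences Evercode). All samples belonged to 1 group, adult whole retina, and the retinas were not divided into dorsal and ventral pieces. The labels gave 8 technical sublibraries of 1 multiplexed pool, and the series described 5 biological replicates. The count matrix held 2 retina names, called retina 1 and retina 2, which matched no label, so no test was made. Values are given for both summed, for each name, or for both summed alone.

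Of 119839 barcodes, 6430 held at least 500 UMIs and were taken as nuclei, 3221 from retina 1 and 3209 from retina 2. Their median was 3943 UMIs. Clusters were made without the receptor genes and named from marker genes as cone-like (1593 nuclei), rod-like (1505), Müller-like (432), bipolar-like (373), amacrine-like (260), horizontal-like (137) and ganglion-like (91). Median UMIs per nucleus ran from 1618 in rods to 11292 in ganglion cells. Rod or cone marker transcripts above 10% of the level of a photoreceptor marked 77.5% of the bipolar, 70.0% of the amacrine, 67.2% of the horizontal, 65.9% of the ganglion and 45.4% of the Müller barcodes. These are called admixed barcodes, and values without them are given where stated. A cluster of 295 very deep barcodes (median 25877 UMIs) carried amacrine and bipolar markers together and was left out of the classes. Among nuclei, 99 combinations of barcoding wells occurred in both sublibraries.

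All 27 genes had at least 20 UMIs in the 7 classes. In all nuclei, inside and outside these classes, they had 40346 UMIs together. The 7 classes held 4391 of the 6430 nuclei (68.3%). Unnamed clusters, the very deep one included, held 1055 nuclei with 21540534 of the 54700414 UMIs. A further 401 nuclei with rod and cone markers mixed were also outside the 7 classes. Levels are CPM, the UMIs of a gene scaled to a common total of UMIs per summed class. A gene was called higher or lower when its CPM differed at least 2-fold from the other 6 classes pooled, over both retinas and in each. The class with the highest level was ganglion for 11 genes, amacrine for 6, bipolar for 5, cone for 2, Müller for 2 and horizontal for 1. It was rod for 0 genes. Over all 15079 genes measured, the highest class was ganglion for 16.9%, amacrine for 8.75%, bipolar for 6.25% and cone for 15.5%. For the rest it was Müller (18.1%), horizontal (11.2%) or rod (23.3%). For 19 of the 27 genes each retina gave the same highest class. For 17 the 95% interval of the ratio over the second class lay above 0 on the log2 scale. Of the 11 ganglion genes 6 met the first and 6 the second, and of the 6 amacrine genes 3 met each. All 5 bipolar genes met the first and 3 the second. The 2 cone, 2 Müller and 1 horizontal genes met both. The same counts over all genes are not given here. Without admixed barcodes the highest class was the same for 19 of the 27 genes. It was another class for 8, namely bipolar for gabrr3b and GABRR1 ENSABLG00000007108, cone for GABRA5, and amacrine for GABRA3, GABRB1, GABRG1 ENSABLG00000022159, glra4b ENSABLG00000014754 and glra4b ENSABLG00000022565. Some of these rested on few UMIs in the new class: 3 for gabrr3b, 8 for glra4b ENSABLG00000022565 and 16 for glra4b ENSABLG00000014754. Others were close, with GABRA3 at 201 CPM, against 189 CPM in Müller-like nuclei, and GABRB1 at 79.7 CPM, against 73.5 CPM in ganglion-like nuclei.

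**Figure D1:**
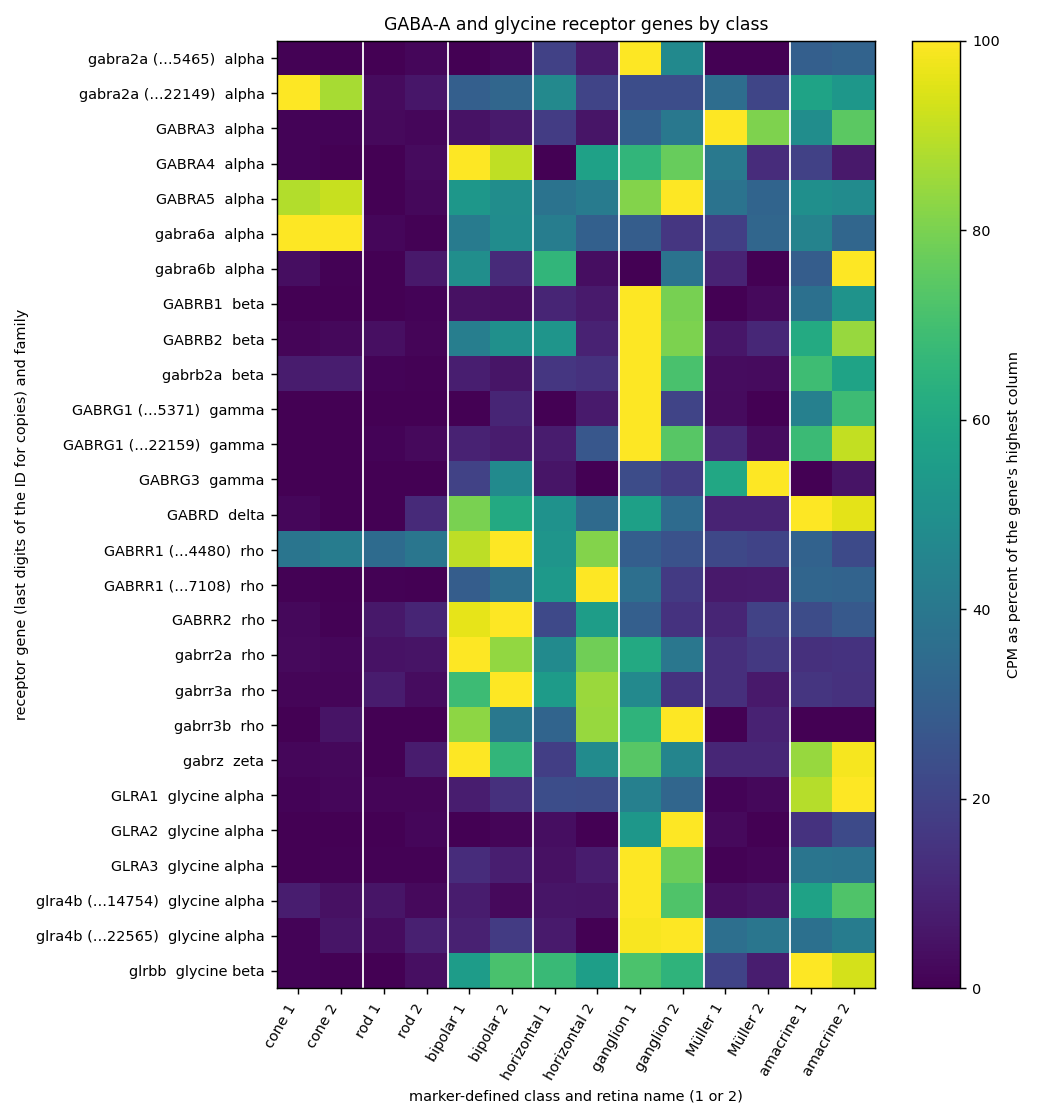
Level of each of the 27 receptor genes in 7 marker-defined classes of each retina name, as a percent of the highest column of that gene. The cone columns are bright for 3 alpha genes, gabra6a, GABRA5 and gabra2a ENSABLG00000022149, most rho genes are bright in the bipolar and horizontal columns, and most others are bright in the amacrine and ganglion columns.

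In cones, 3 members were higher than in the other classes pooled (5.23% of the 15079 genes measured were higher by the same rule) and 22 were lower (31.5% of all genes). The 3 were the alpha genes gabra6a, GABRA5 and gabra2a ENSABLG00000022149, called the cone set here. The median log2 ratio over the 27 members was -4.27, against -0.33 over all genes. Rods were low for most members: 0 were higher (6.28% of all genes) and 21 were lower (26.1% of all genes), with a median of -3.39 against -0.21 over all genes. When each nucleus was classed by marker score, 5 were lower in rods, and the log2 ratios of GABRR2 (0.70), gabrr2a (0.085), gabrr3a (0.27) and GABRD (0.23) were above 0. With equal class weights 13 were lower in rods and 14 in cones. Here and below, counts under other settings are given without the share over all genes under that setting.

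The level of gabra6a, whose mammalian relative is known from cerebellar granule cells, was 82.1 and 82.0 CPM in the cones of retina 1 and retina 2, against 1.45 and 0.632 CPM in the rods (log2 ratio 6.34, 95% interval 4.79 to 8.62). The cones of each retina were far above the rods of each retina. For gabra2a ENSABLG00000022149 the values were 51.3 and 44.5 CPM in cones, against 1.45 and 3.16 CPM in rods (4.34, 3.29 to 5.67). GABRA5 had 28.1 and 29.1 CPM in cones and 1 UMI in all rods. The beta gene gabrb2a was also higher in cones than in rods, at 20.02 and 20.4 CPM in cones, against 2.90 and 1.26 CPM in rods (3.32). All intervals cover counting error alone. In this pair, 10 members had at least 20 UMIs, of which 4 were higher in cones (14.9% of 11575 genes) and 1, GABRR2, was lower (15% of genes).

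Summed by family, rho genes had 69.0 CPM in cones, against 77.0 CPM in rods, and glycine receptor alpha genes had 9.88 CPM in cones, against 11.1 CPM in rods. Both intervals included 0. The rho sum was mostly GABRR1 ENSABLG00000004480, with 538 UMIs in cones and 173 in rods. Other rho genes were lower in cones than in rods. GABRR2 had 1.29 CPM, against 7.76 CPM (log2 ratio -2.59, -3.77 to -1.49), and gabrr2a 3.65 CPM, against 8.44 CPM (-1.21, -2.02 to -0.39). Set against bipolar-like nuclei, cones were higher for 2 of 20 members measured (3.24% of 12460 genes) and lower for 16 (20.8% of genes). The 2 were gabra6a, at 34.3 and 39.98 CPM in bipolar-like nuclei (log2 ratio 1.14, 0.86 to 1.44), and gabra2a ENSABLG00000022149, at 15.5 and 16.9 CPM in bipolar-like nuclei (1.57, 1.14 to 2.01).

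After each nucleus was thinned to 1000 UMIs, 7.33% of 1582 cones (95% Wilson interval 6.15 to 8.72%) had a UMI of gabra6a, against 0.0778% of 1285 rods (0.0137 to 0.439%). Thinning left out 11 cones and 220 rods as too shallow. Without thinning the shares were 30.8% of cones and 0.199% of rods, at median depths of 4528 and 1618 UMIs. Free RNA held the same transcripts, since barcodes under 100 UMIs had 30.6 CPM of gabra6a, 25.9 CPM of gabra2a ENSABLG00000022149 and 32.8 CPM of GABRA5.

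The genes of the cone set also appeared in other classes, at levels that moved with the admixed barcodes. Without those barcodes gabra6a had 0 UMIs in bipolar-like, amacrine-like, horizontal-like, ganglion-like and Müller-like nuclei. With them it had 37.2 CPM in bipolar-like, 31.1 CPM in amacrine-like, 29.6 CPM in horizontal-like, 21.6 CPM in Müller-like and 17.4 CPM in ganglion-like nuclei. Its level in cones was 82.6 CPM without them, against 82.1 CPM with them. For gabra2a ENSABLG00000022149 the level in amacrine-like nuclei was 6.93 CPM without them, against 28.2 CPM with them, and in Müller-like nuclei 1.59 CPM without them, against 14.2 CPM with them. GABRA5, whose highest class was ganglion at 29.5 CPM, had 3.87 CPM there without admixed barcodes, against 28.5 CPM in cones. In bipolar-like nuclei 5 UMIs of GABRA5 and 4 of gabra2a ENSABLG00000022149 were left in the 84 nuclei that were not admixed. Over the other classes pooled, the log2 ratio of cones for gabra2a ENSABLG00000022149 was 3.90 without admixed barcodes and 1.72 with them, and that of GABRA5 was 3.50 without them and 1.15 with them. Admixed barcodes were picked by their rod and cone marker transcripts, so a fall of cone genes without them was partly set by the filter. The 84 bipolar-like nuclei left were also shallower, at a median of 1661 UMIs, against 4927 UMIs in all bipolar-like nuclei.

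One rho gene outside the cone set was near the level of the other classes pooled in both rods and cones. These pooled classes include the other photoreceptor. GABRR1 ENSABLG00000004480 had 58.4 CPM in rods, against 68.6 CPM in the other classes pooled, a log2 ratio of -0.23. In cones it had 63.3 CPM, against 69.5 CPM in the other classes pooled (-0.14). Both levels were below the 149 CPM of bipolar-like and 106 CPM of horizontal-like nuclei. They were above the 42.3 CPM of ganglion-like, 41.3 CPM of amacrine-like and 32.7 CPM of Müller-like nuclei. The level of this gene differed among cones, as given below. Its level in barcodes under 100 UMIs was 87.9 CPM, above both photoreceptor levels.

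Cones were then split by the opsin subfamily with 80% or more of their cone opsin UMIs, giving 733 nuclei with rh2, 150 with sws2, 146 with sws1 and 78 with lws opsins. Of the members, 7 had at least 20 UMIs in these cones. Cones with sws1, the ultraviolet opsin of fishes, were lower than the other assigned cones for 2 of the 7 (5.39% of 9901 genes) and higher for 0 (4.61% of genes). Both belong to the cone set.

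GABRA5 had 5.44 and 4.31 CPM in the sws1 cones of retina 1 and retina 2, against 27.9 and 29.9 CPM in the other cones (log2 ratio -2.59, -4.48 to -1.20). Its level in sws1 cones rested on 4 UMIs. The level of gabra2a ENSABLG00000022149 was 24.5 and 21.5 CPM in sws1 cones, against 49.97 and 50.9 CPM in the other cones (-1.14, -1.90 to -0.47). For these 2 genes each retina's sws1 cones lay below each retina's other cones, and also above the rods. The second was near the limit of 2-fold: 1 gene was called lower with median-of-ratios scaling, without admixed barcodes or without high doublet scores. The other gene of the set, gabra6a, had 67.3 CPM in sws1 cones, against 87.3 CPM in the other cones, and its interval of -0.80 to 0.03 included 0.

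Cones with sws2, a blue opsin, were marked by a rho gene. GABRR1 ENSABLG00000004480 had 226 and 245 CPM in the sws2 cones of retina 1 and retina 2, against 27.6 and 31.2 CPM in the other assigned cones. Both retinas showed the difference at nearly the same size, and the log2 ratio was 3.00 (2.68 to 3.32). It was the sole member called higher there (1.95% of genes), and 0 were lower (2.8% of genes). The gene was low in the other opsin groups, at 38.5 CPM in sws1, 28.2 CPM in rh2 and 21.7 CPM in lws cones. In rh2 cones this gave the 1 member called lower (3.97% of genes), with a log2 ratio of -1.99 against cones that include those with sws2, and 0 were higher (2.26% of genes). In lws cones GABRA5 was called higher (2.34% of genes), at 52.7 and 51.5 CPM in lws cones, against 22.9 and 23.6 CPM in the other cones (1.17, 0.47 to 1.81), and 0 were lower (2.86% of genes). A stricter rule, at least 3 opsin UMIs with 95% from 1 subfamily, gave 0 higher in lws cones and a log2 ratio of 0.74 for GABRA5. Retina 2 alone gave 2 higher, and retina 1 alone gave 2 lower.

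**Figure D2:**
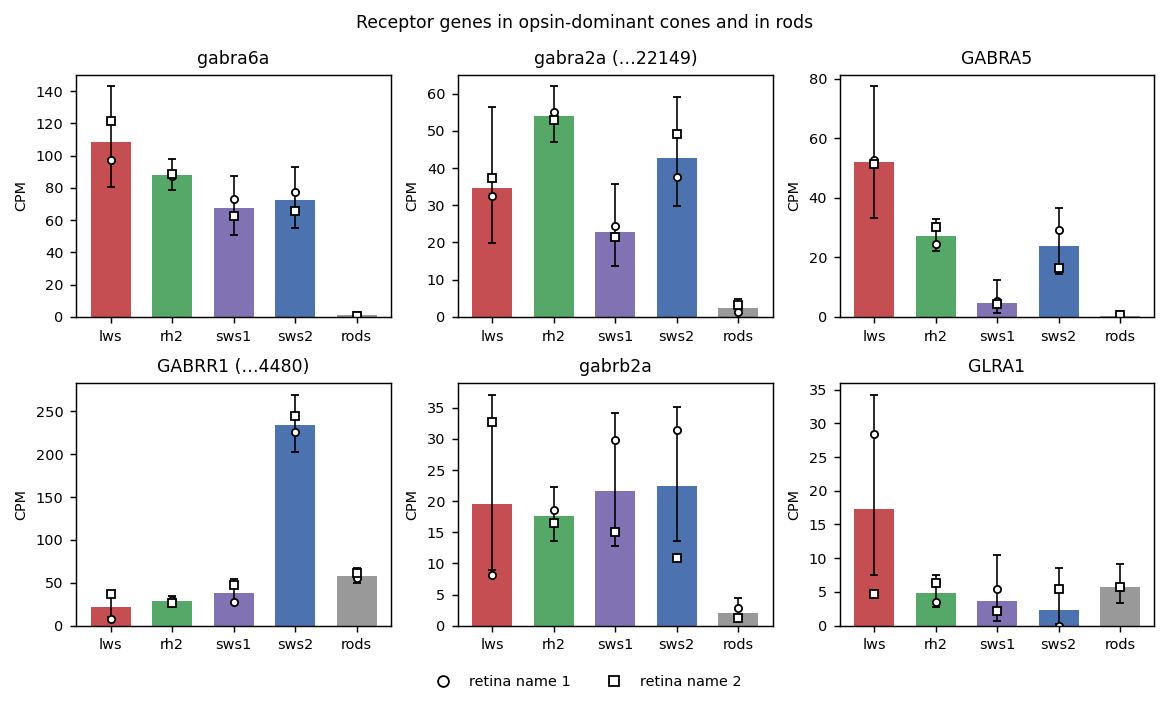
CPM of 6 receptor genes in cones grouped by dominant opsin and in rods. Bars are both retinas summed with 95% Poisson intervals, circles retina 1 and squares retina 2. The sws1 bars are the lowest cone bars for GABRA5 and gabra2a ENSABLG00000022149, and the sws2 bar of GABRR1 ENSABLG00000004480 stands at 234 CPM.

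Cone clusters made without opsins or receptor genes also differed in GABRR1 ENSABLG00000004480. It had 154 CPM in 1 cluster of 185 nuclei and 209 CPM in another of 155 nuclei, against 42.5 and 50.7 CPM in the cones outside each. One other cone cluster, of 293 nuclei, had 9.81 CPM, against 77.0 CPM outside it. This cluster held more GLRA1, a glycine receptor alpha gene, at 17.3 CPM, against 2.81 CPM outside it (log2 ratio 2.62, 1.75 to 3.54). That level was still far below the 410 CPM of amacrine-like nuclei.

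In bipolar-like nuclei 11 members were higher than in the other classes pooled (4.24% of all genes) and 5 were lower (7.34% of all genes). All 6 rho genes were among the 11, together with gabrz, GABRA4, GABRD, GABRB2 and glrbb. With equal class weights 5 were higher. Some of the 11 had a higher level in another class. GABRB2 had 64.9 CPM here and 123 CPM in ganglion-like nuclei, and glrbb had 28.3 CPM here and 42.9 CPM in amacrine-like nuclei. The call of gabrr3b rested on 9 UMIs. GABRA3, GABRB1, gabrb2a, gabra2a ENSABLG00000005465 and glra4b ENSABLG00000014754 were the 5 lower ones. The median log2 ratio of the members was -0.21, against -0.05 over all genes.

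GABRR2, a rho gene, had 86.8 and 89.9 CPM in the bipolar-like nuclei of retina 1 and retina 2, against 20.8 and 25.01 CPM in amacrine-like nuclei (log2 ratio 1.92). The level of gabrr2a was 165 and 138 CPM in bipolar-like nuclei, against 22.8 and 24.3 CPM in amacrine-like nuclei (2.67). GABRR1 ENSABLG00000004480 had 141 and 157 CPM in bipolar-like nuclei, against 49.6 and 35.4 CPM in amacrine-like nuclei (1.85). Bipolar-like nuclei of each retina were above amacrine-like nuclei of each retina for these 3 genes. The smaller gabrr3a was highest in bipolar-like nuclei at 32.7 CPM, next to 27.5 CPM in horizontal-like nuclei, a pair whose interval included 0. GABRA4 was also highest in bipolar-like nuclei, at 19.7 CPM, next to 15.05 CPM in ganglion-like nuclei.

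The rho sum was 458 and 467 CPM in bipolar-like nuclei, against 137 and 127 CPM in amacrine-like nuclei (log2 ratio 1.82, 1.643 to 1.997). Without admixed barcodes the ratio was 3.39. It was 0.41 when the very deep cluster was counted as amacrine, and the count of 11 members higher in bipolar-like nuclei was then 1. Glycine receptor alpha genes went the other way, with 95.2 and 102 CPM in bipolar-like nuclei, against 582 and 635 CPM in amacrine-like nuclei (-2.64, -2.82 to -2.46). Over single genes, 5 of the 26 members measured in this pair were higher in bipolar-like nuclei (3.02% of 12265 genes) and 11 were lower (8.72% of genes). Among nuclei that were not admixed, the rho levels of bipolar-like nuclei were higher still, at 524 CPM for gabrr2a, 384 CPM for GABRR2 and 373 CPM for GABRR1 ENSABLG00000004480.

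Bipolar-like nuclei held several sub-clusters, which differed in receptor genes. In those described, 64.0 to 100% of the barcodes were admixed. These sub-clusters were made after the class values had been seen, each is compared with the remaining bipolar-like nuclei, and 20 members were measured. GABRR2 had 830 and 358 CPM in a sub-cluster of 25 nuclei with cabp5a and LHX4 up, against 68.3 CPM in the rest (log2 ratio 3.04; 2.61% of 10336 genes were higher by the rule). It had 12.4 CPM in a sub-cluster of 59 nuclei, the largest of those with VSX1 up, against 99.6 CPM in the rest. In that VSX1 sub-cluster gabrz, a subunit gene known from fishes, had 69.3 CPM, against 13.1 CPM in the rest (2.40), and GABRA4 had 61.9 CPM, against 13.5 CPM in the rest (2.20; 1.69% of genes).

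GABRA4 was also higher in a sub-cluster of 42 nuclei with grm6b and trpm1a up, genes of the ON pathway, at 61.7 CPM, against 15.1 CPM in the rest (2.03; 1.61% of genes). Another sub-cluster with these 2 genes up, of 26 nuclei, had 0 members higher (1.18% of genes), with 7.97 CPM of GABRA4 on 3 UMIs, against 21.3 CPM in the rest (-1.42, -3.74 to 0.20). VSX1 was also up in a sub-cluster of 31 nuclei, where gabrz and GABRA4 were not called higher. There GABRG3 had 15 UMIs, and 13 in the rest, or 62.9 CPM against 4.47 CPM (3.81; 2.22% of genes). GABRA5 was higher there too (1.38). Sub-clusters of 7 and 11 nuclei with VSX1 up are not described. In a sub-cluster of 27 nuclei gabrz had 113 CPM, against 14.8 CPM in the rest (2.94; 2.22% of genes), and gabra6b was higher with it (2.95). GLRA3 had 155 CPM in a sub-cluster of 23 nuclei, against 34.6 CPM in the rest (2.16; 2.08% of genes), where GABRB2 was also higher (1.26) and every barcode was admixed. GLRA1 had 112 CPM in a sub-cluster of 38 nuclei with grm6a up, against 33.6 CPM in the rest (1.74; 7.18% of genes), with GABRA3 and GABRG1 ENSABLG00000022159 also higher. Of these nuclei 89.5% had a high doublet score, whose part in the result was not tested.

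With admixed barcodes left out, 3 of these sub-clusters kept at least 5 UMIs of a gene called higher in them. GABRR2 then had 1373 CPM in the 9 nuclei left of its sub-cluster, against 280.4 CPM in the rest (log2 ratio 2.29, 1.52 to 3.03). In the 15 nuclei left of the largest sub-cluster with VSX1 up, gabrz had 416 CPM on 9 UMIs, against 12.2 CPM in the rest (5.09). GABRA4 had 231 CPM there on 5 UMIs, against 30.6 CPM in the rest (2.92). GLRA1 had 319 CPM in the 8 nuclei left of the grm6a sub-cluster, against 55.4 CPM in the rest (2.53, 1.15 to 4.00). In those 8 nuclei GABRA3 had 0 UMIs, against 3 in the rest, and GABRG1 ENSABLG00000022159 had 2, against 2 in the rest. Elsewhere few UMIs were left: 0 of GABRA4 in the 6 nuclei with grm6b up, 3 of GABRG3 and 0 of GABRA5 in 7 nuclei, and 2 of gabrz in 4. Those 4 nuclei also had 2 UMIs of gabra6b. Their log2 ratios were 2.84 (-0.41 to 5.11) for gabrz and 3.69 (0.29 to 6.30) for gabra6b.

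**Figure D3:**
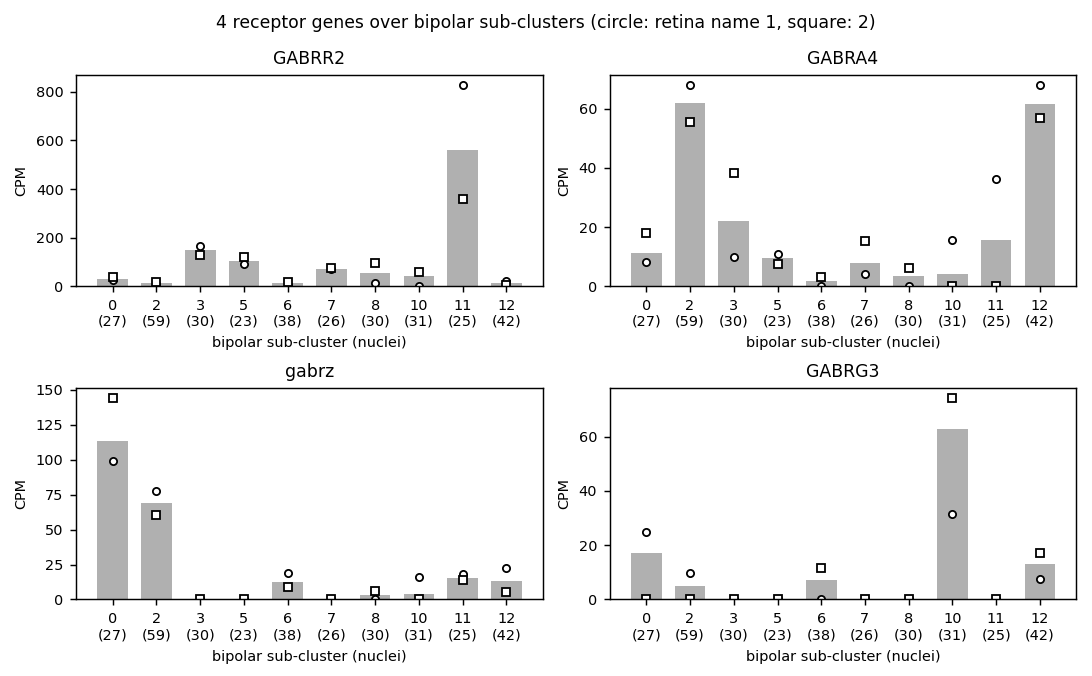
CPM of GABRR2, GABRA4, gabrz and GABRG3 in each bipolar sub-cluster, with the number of nuclei below each bar. Bars are both retinas summed, circles retina 1 and squares retina 2. GABRR2 peaks at 562 CPM in the sub-cluster of 25 nuclei, while GABRA4 reaches about the same level in the sub-clusters of 59 and 42 nuclei (61.9 and 61.7 CPM).

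In horizontal-like nuclei 4 members were higher (6.33% of all genes) and 1, glra4b ENSABLG00000014754 with 2 UMIs, was lower (3.38% of all genes). All 4 were rho genes, namely GABRR1 ENSABLG00000007108, gabrr2a, gabrr3a and gabrr3b, of which gabrr3b had 4 UMIs and an interval that included 0. Without retina 2 the count of higher members was 7, and with the very deep cluster counted as amacrine it was 1. GABRR1 ENSABLG00000007108 had 62.1 and 116 CPM in the horizontal-like nuclei of retina 1 and retina 2, against 37.7 and 36.8 CPM in amacrine-like nuclei. It was highest in this class, with a log2 ratio of 1.25 (0.88 to 1.62) over bipolar-like nuclei, the next class. Without admixed barcodes it had 151 CPM in horizontal-like nuclei, against 194 CPM in bipolar-like nuclei (-0.36, -1.15 to 0.40) and 79.7 CPM in amacrine-like nuclei.

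The rho sum was 265 and 460 CPM in horizontal-like nuclei, against 137 and 127 CPM in amacrine-like nuclei. The log2 ratio was 1.49 (1.29 to 1.70), but 0.95 in retina 1 and 1.86 in retina 2, so the retinas differed in its size. It was 1.54 without admixed barcodes, and 0.082 when the very deep cluster was counted as amacrine. Over single genes, 2 of 24 members were higher in horizontal-like than in amacrine-like nuclei (6.36% of 11540 genes), gabrr2a and gabrr3a, and 10 were lower (6.81% of genes), among them GLRA1 and GLRA3.

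In amacrine-like nuclei 16 of the 27 members were higher (9.44% of all genes) and 0 were lower (4.93% of all genes), with a median log2 ratio of 1.79, against -0.05 over all genes. The 16 included 4 of the 5 glycine receptor alpha genes. With equal class weights, or with each nucleus classed by marker score, fewer members were higher, as given in the last section. GLRA1 had 382 and 429 CPM in the amacrine-like nuclei of retina 1 and retina 2, against 187 and 142 CPM in ganglion-like nuclei, the next class. Each retina's amacrine-like level was above each retina's ganglion-like level, with a log2 ratio of 1.36 (1.17 to 1.56). Without admixed barcodes GLRA1 had 818 CPM in amacrine-like nuclei, against 255 CPM in ganglion-like nuclei.

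The other genes with their highest level in amacrine-like nuclei were lower in UMIs. The glycine receptor beta gene glrbb, whose product ties the receptor to gephyrin, had 44.6 and 41.7 CPM there, against 31.9 and 29.0 CPM in ganglion-like nuclei. GABRD, the delta subunit known from receptors outside synapses, had 26.1 CPM in amacrine-like nuclei, next to 18.8 CPM in bipolar-like nuclei, and gabrz had 22.9 CPM, next to 20.3 CPM. Both of these intervals included 0. The level of gabra6b was 10.9 and 36.8 CPM in amacrine-like nuclei, so the retinas differed more than 3-fold. In retina 1 that level was below the 24.2 CPM of horizontal-like and 18.1 CPM of bipolar-like nuclei. GABRG1 ENSABLG00000005371 had 10.6 CPM in amacrine-like and 9.26 CPM in ganglion-like nuclei, which could not be told apart at this depth.

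Amacrine sub-clusters, again made after the class values had been seen, differed as well (22 members measured). GABRB2 had 193 and 381 CPM in a sub-cluster of 66 nuclei with GAD2 and slc6a1b up, against 76.0 CPM in the other amacrine-like nuclei (log2 ratio 1.85; 2.81% of 9986 genes). GABRR1 ENSABLG00000007108 had 98.1 and 95.7 CPM in a sub-cluster of 60 nuclei led by EBF1, GRM3 and LAMP5 and including SLC6A3, the dopamine transporter gene, against 20.8 CPM in the others (2.22; 1.37% of genes). GLRA1 had 1000 and 1012 CPM in a sub-cluster of 26 nuclei with GAD2 and gad1b up, against 376 CPM in the others (1.42; 6.37% of genes). In that last sub-cluster gabrb2a (1.02) and gabrz (1.33, 7 UMIs) were also called higher. Of these 3 sub-clusters, 63.6%, 76.7% and 42.3% of the barcodes were admixed, in the order given. Without them, GABRB2 had 332 CPM in the first, against 188 CPM in the others (0.82, -0.02 to 1.62), and GABRR1 ENSABLG00000007108 had 702 CPM in the second, against 7.73 CPM (6.50, 4.47 to 9.64). The difference of GLRA1 was then not detectable, at 877 CPM in the third, against 802 CPM in the others (0.13, -0.34 to 0.58). The intervals of gabrb2a (0.23, -0.51 to 0.92) and gabrz (0.54, -1.10 to 1.96) in the third then included 0 as well.

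A split of amacrine-like nuclei into GABA-marked and glycine-marked ones gave no value. Of the 260 nuclei 164 had a UMI of a gad gene, and 0 had slc6a5, the neuronal glycine transporter, without one. The very deep cluster could be split by CHAT, the marker of cholinergic amacrine cells, a comparison added after the values had been seen. There gabra6b had 68.0 and 92.1 CPM in 91 barcodes with at least 3 CHAT UMIs, against 12.8 and 5.21 CPM in 179 barcodes with 0 (log2 ratio 3.26, 2.84 to 3.71). GABRB1 had 47.2 CPM in CHAT-marked barcodes, against 20.3 CPM in CHAT-free ones (1.22, 0.92 to 1.53). These were the 2 members of 27 called higher (0.577% of 14893 genes), and 0 were lower (0.806% of genes). CHAT-marked barcodes were deeper, at a median of 38611 UMIs, against 23669 UMIs, and 89.0% of them had a high doublet score, against 93.3%.

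In ganglion-like nuclei 13 members were higher (12.7% of all genes) and 1, gabra2a ENSABLG00000022149, was lower (4.34% of all genes), with a median of 1.37, against -0.06 over all genes. GLRA3, a glycine receptor alpha gene, had 442 and 342 CPM in the ganglion-like nuclei of retina 1 and retina 2, against 172 and 169 CPM in amacrine-like nuclei. Both ganglion values were above both amacrine values (log2 ratio 1.16, 0.98 to 1.34). GLRA2 had 21.3 and 40.2 CPM in ganglion-like nuclei, against 5.95 and 9.03 CPM in amacrine-like nuclei (2.09, 1.32 to 2.92). The 2 glycine receptor genes glra4b ENSABLG00000022565 and glra4b ENSABLG00000014754 each had 21.4 CPM in ganglion-like nuclei, and of these the first was above its amacrine level of 8.58 CPM (1.32, 0.51 to 2.17). Without admixed barcodes, which left 31 ganglion-like and 78 amacrine-like nuclei, GLRA3 had 638 CPM in ganglion-like nuclei, against 374 CPM in amacrine-like nuclei (0.77, 0.41 to 1.13). GLRA2 then had 34.8 CPM in ganglion-like nuclei, against 34.6 CPM in amacrine-like nuclei (0.006, -1.47 to 1.46), and glra4b ENSABLG00000022565 had 15.5 CPM, against 27.7 CPM (-0.84, -3.02 to 1.06).

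GABA-A genes highest in ganglion-like nuclei were mostly shared with amacrine-like nuclei. GABRB2 had 123 CPM in ganglion-like nuclei, against 105 CPM in amacrine-like nuclei, and GABRG1 ENSABLG00000022159 had 119 CPM, against 115 CPM. Over both retinas both intervals included 0. In retina 1 the log2 ratios were 0.71 (0.27 to 1.15) and 0.55 (0.13 to 0.98). In retina 2 they were -0.07 and -0.30, with intervals that included 0. Over both retinas, intervals above 0 were seen for gabrb2a, with 258 and 184 CPM in ganglion-like nuclei, against 179 and 149 CPM in amacrine-like nuclei (0.40, 0.19 to 0.60). GABRB1 had 72.9 and 58.0 CPM in ganglion-like nuclei, against 26.8 and 37.5 CPM in amacrine-like nuclei (0.94, 0.52 to 1.38). The level of gabra2a ENSABLG00000005465 was 39.5 and 18.7 CPM in ganglion-like nuclei, against 11.9 and 12.5 CPM in amacrine-like nuclei (1.12). Without admixed barcodes the intervals of these 3 genes included 0, at 410 CPM of gabrb2a in ganglion-like nuclei, against 343 CPM in amacrine-like nuclei (0.26), 73.5 CPM of GABRB1, against 79.7 CPM (-0.12), and 46.4 CPM of gabra2a ENSABLG00000005465, against 45.04 CPM (0.043). The rho gene gabrr3b had 7 UMIs in ganglion-like nuclei, 4.05 CPM, its highest level. Of 25 members measured in this pair, 5 were higher in ganglion-like nuclei (5.92% of 11811 genes), namely GLRA2, GLRA3, gabrr2a, GABRA4 and glra4b ENSABLG00000022565, and 3 were lower (2.12% of genes).

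**Figure D4:**
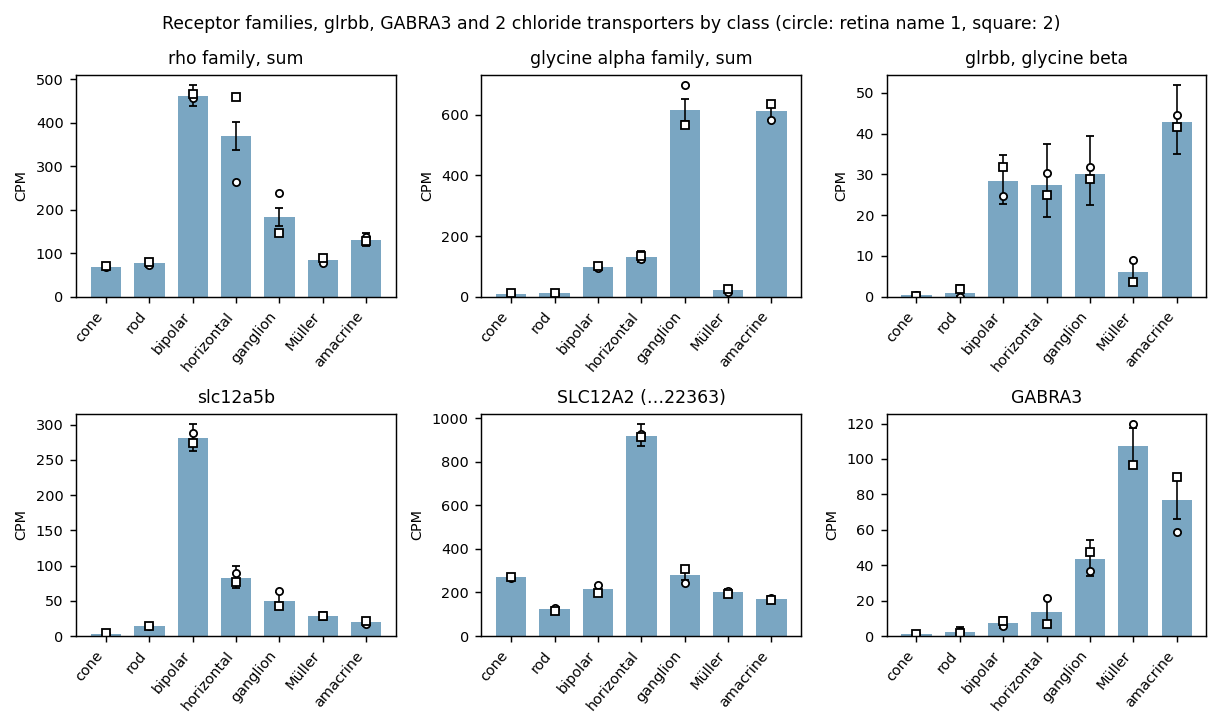
CPM of the summed rho and glycine alpha families, of glrbb, slc12a5b, SLC12A2 ENSABLG00000022363 and GABRA3 in the 7 classes. Bars are both retinas summed with 95% Poisson intervals, circles retina 1 and squares retina 2. The rho sum is highest in bipolar and horizontal nuclei, glycine alpha in ganglion and amacrine nuclei (615 and 613 CPM), glrbb in amacrine nuclei and GABRA3 in Müller nuclei.

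In Müller-like nuclei, the glia of the retina, 2 members were higher (13.8% of all genes) and 12 were lower (8.28% of all genes), with a median of -1.56, against -0.14 over all genes. GABRA3, an alpha gene, had 120 and 96.6 CPM in the Müller-like nuclei of retina 1 and retina 2, against 58.5 and 89.6 CPM in amacrine-like nuclei, the next class (log2 ratio 0.48, 0.23 to 0.73). Over the other classes pooled the ratio was 2.75 (2.54 to 2.96). Thinned to 1000 UMIs, 12.7% of 424 Müller-like nuclei had a GABRA3 UMI, against 0.156% of 1285 rods. Without thinning the shares were 37.7% and 0.399%, at medians of 6054 and 1618 UMIs. The shares without thinning were 28.5% of amacrine-like and 31.9% of ganglion-like nuclei, at medians of 6052.5 and 11292 UMIs. GABRG3, a gamma gene, had 15.7 and 26.2 CPM in Müller-like nuclei, against 5.18 and 12.5 CPM in bipolar-like nuclei (1.26, 0.64 to 1.93). Without admixed barcodes GABRA3 had 189 CPM and GABRG3 31.1 CPM in Müller-like nuclei, while GABRA3 then had 201 CPM in amacrine-like nuclei (-0.09, -0.51 to 0.35) and GABRG3 had 27.01 CPM in bipolar-like nuclei (0.20, -1.14 to 1.90). Of 26 members measured against amacrine-like nuclei, GABRG3 alone was called higher in Müller-like nuclei (12.4% of 13166 genes), and 15 were lower (10.6% of genes).

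The study's question concerns the ventral retina, and nuclei carry position marks in the transcription factor genes tbx5 (dorsal) and vax (ventral). A nucleus was marked by at least 1 UMI of 1 side and 0 of the other. Among cones, 111 were tbx5-marked and 495 vax-marked, at medians of 6094 and 4811 UMIs. Of the 5 members measured, 0 were called higher in tbx5-marked cones (2.18% of 8827 genes) and 0 lower (2.28% of genes). The nearest were gabrb2a, with 30.7 and 34.2 CPM in tbx5-marked cones, against 10.9 and 19.5 CPM in vax-marked cones (log2 ratio 1.09, 0.32 to 1.83), and GABRR1 ENSABLG00000004480, with 27.9 and 24.4 CPM in tbx5-marked cones, against 54.4 and 59.0 CPM in vax-marked cones (-1.13, -1.87 to -0.45). In each, 1 retina was short of 2-fold, so retina 1 alone gave 1 higher gene and retina 2 alone gave 1 lower gene. The opsin make-up of tbx5-marked and vax-marked cones was not compared, so position cannot be told apart from opsin type.

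Among Müller-like nuclei, 61 were tbx5-marked and 215 vax-marked, and 11 members were measured. GABRG3 had 31.5 and 46.1 CPM in tbx5-marked nuclei, against 12.3 and 8.61 CPM in vax-marked ones (log2 ratio 1.86, 0.89 to 2.83). GABRG1 ENSABLG00000022159 had 52.4 and 29.4 CPM in tbx5-marked nuclei, against 12.3 and 0 CPM in vax-marked nuclei (2.74, 1.66 to 3.88). These were the 2 members called higher (3% of 9943 genes), on 20 and 22 UMIs in tbx5-marked nuclei, and gabrr2a with 5 UMIs was the 1 called lower (7.33% of genes). Without retina 1 the counts were 1 higher and 4 lower. GABRA3 had 196 and 197 CPM in tbx5-marked nuclei, against 100.3 and 62.4 CPM in vax-marked ones. The log2 ratio of 1.26 (0.89 to 1.63) was short of 2-fold in retina 1 (0.96). Without admixed barcodes 1 member was called higher and 0 lower, with log2 ratios of 2.55 for GABRG3 and 3.02 for GABRG1 ENSABLG00000022159, and without high doublet scores 0 were lower. Admixture moved with this split, at 23.0% of tbx5-marked nuclei, against 47.0% of vax-marked nuclei. Within 1 Müller cluster (53 tbx5-marked and 45 vax-marked nuclei) GABRA3 had 229 CPM in tbx5-marked nuclei, against 98.7 CPM in vax-marked nuclei (1.21, 0.71 to 1.73), while the intervals of GABRG3 and GABRG1 ENSABLG00000022159 included 0. Within a second cluster (8 tbx5-marked and 170 vax-marked nuclei) GABRA3 had 34.1 CPM on 3 UMIs in tbx5-marked nuclei, against 75.6 CPM in vax-marked nuclei (-1.15, -3.45 to 0.44). GABRG1 ENSABLG00000022159 had 79.6 CPM on 7 UMIs there, against 2.88 CPM in vax-marked nuclei (4.79, 2.81 to 7.01), and the interval of GABRG3 included 0 (1.81, -1.44 to 4.08).

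Classes outside the 7, compared after the values had been seen, added a few levels above the 7 classes pooled. GABRB2 had 766 and 653 CPM in the 96 oligodendrocyte-like nuclei of retina 1 and retina 2, against 33.4 CPM in the 7 classes pooled (log2 ratio 4.39, 4.20 to 4.57; 12.8% of 4280 genes were higher by the rule). Over ganglion-like nuclei, its highest of the 7, the ratio was 2.51 (2.26 to 2.76). At least 1 GABRB2 UMI was found in 80.2% of oligodendrocyte-like nuclei and 0.598% of rods, at medians of 2665 and 1618 UMIs. In ganglion-like nuclei the share was 54.9%, at a median of 11292 UMIs. GABRG1 ENSABLG00000022159 had 56.0 and 233 CPM in 104 pericyte-like nuclei, against 25.1 CPM in the 7 classes (2.52; 12.3% of genes), so its size differed between retinas. Over ganglion-like nuclei, its highest of the 7, the ratio was 0.28, and the interval of -0.07 to 0.62 included 0. Its 108 UMIs in pericyte-like nuclei lay in 15 nuclei (14.4%), with 87 of them in 9 nuclei of retina 2. In microglia-like nuclei gabrz had 43.1 CPM on 29 UMIs, against 7.14 CPM in the 7 classes (2.59; 4.77% of genes). Over amacrine-like nuclei, its highest of the 7, the ratio was 0.91 (0.21 to 1.59). GABRA4 had 23.6 CPM in nuclei with markers of the retinal pigment epithelium, against 5.21 CPM in the 7 classes (2.18; 20.3% of genes). Over bipolar-like nuclei, its highest of the 7, the ratio was 0.26, and the interval of -0.39 to 0.88 included 0. High doublet scores marked 94.2% of the pericyte-like, 68.6% of the microglia-like, 34.4% of the oligodendrocyte-like and 14.3% of the pigment epithelium nuclei, and 54.8%, 64.3%, 35.4% and 9.89% were admixed. Without admixed barcodes the log2 ratio over the 7 classes was 6.85 for GABRB2, 4.24 for GABRG1 ENSABLG00000022159, 6.07 for gabrz on 7 UMIs and 4.07 for GABRA4. The part of doublets in these levels was not tested.

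**Figure D5:**
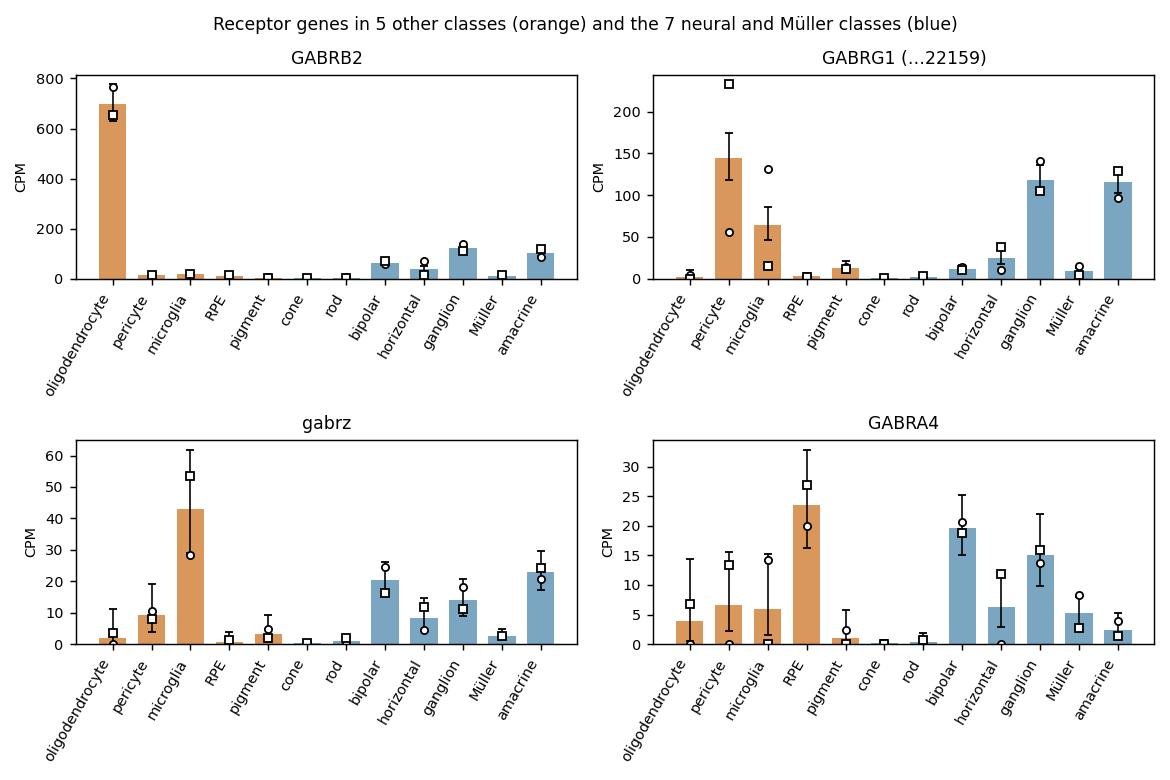
CPM of GABRB2, GABRG1 ENSABLG00000022159, gabrz and GABRA4 in 5 classes outside the 7 (orange, left) and in the 7 classes (blue). Bars are both retinas summed with 95% Poisson intervals, circles retina 1 and squares retina 2. GABRB2 stands out in oligodendrocyte-like nuclei at 700 CPM.

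Genes of the machinery around these receptors were summarised from a list of anchoring, assembly, GABA-B and chloride transport genes, of which 20 were measured. In ganglion-like and in amacrine-like nuclei 8 of the 20 were higher (12.7% and 9.44% of all genes), and slc12a5b was the 1 lower in amacrine-like nuclei (4.93% of all genes). The scaffold gene gphnb had 484 CPM in ganglion-like nuclei, against 465 CPM in amacrine-like nuclei. LHFPL4, which helps place GABA-A receptors at mammalian synapses, had 145 CPM in ganglion-like nuclei, against 82.1 CPM in amacrine-like nuclei, and the neuroligin gene nlgn2b had 120 CPM, against 108 CPM. Rods and cones each had 12 of the 20 lower (26.1% and 31.5% of all genes) and Müller-like nuclei 10 (8.28%). The GABA-B subunit gene gabbr1a was the 1 member of the list higher in rods, at 806 and 814 CPM in rods, against 144 and 143 CPM in cones. Ganglion-like nuclei were nearer, at 711 and 725 CPM, then amacrine-like nuclei at 567 and 604 CPM. This gene had 544 and 488 CPM in bipolar-like, 453 and 457 CPM in horizontal-like and 166 and 220 CPM in Müller-like nuclei.

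Chloride transporters set the direction of current through these channels. The gene slc12a5b, of the KCC2 exporter, had 289 and 274 CPM in bipolar-like nuclei, next to 89.3 and 76.4 CPM in horizontal-like nuclei (log2 ratio 1.77, 1.49 to 2.06). Without admixed barcodes it had 935 CPM in bipolar-like nuclei, with 42.5 CPM in ganglion-like and 0 UMIs in amacrine-like nuclei. SLC12A2 ENSABLG00000022363, of the NKCC1 importer, had 926 and 916 CPM in horizontal-like nuclei, and 2017 CPM in them without admixed barcodes. MAP1B, whose product binds rho subunits in mammals, had 764 and 821 CPM in horizontal-like nuclei, next to 371 and 281 CPM in ganglion-like nuclei. The exporter gene slc12a7a had 78 UMIs in Müller-like nuclei, 18.7 CPM, and 2 in the other 6 classes together. Outside the 7 classes, pericyte-like nuclei had 22.7 CPM of it, on 17 UMIs in 12 nuclei.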

How the data were processed

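Per the labels' protocols, nuclei were fixed and barcoded with Evercode kits. The deposited values are raw UMI counts of each gene in each barcode, and the files record no normalization by the authors. The aligner, build and annotation were not given in the sources used here. Per the file headers, barcode tables give each barcode's retina name, sublibrary and wells. A table of barcode totals without genes was not used.

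Barcodes with at least 500 UMIs were clustered in scanpy 1.11.5 (2481 variable genes, 40 components, 15 neighbours, Leiden resolution 2) without receptor, associated, opsin, tbx5 and vax genes. A cluster took a class name when at least 3 markers were 2-fold up and detected in 10% of its nuclei. It stayed unnamed when a second class had as many markers or more markers among its leading genes. Shallow clusters with no own marker among the leading genes stayed unnamed. So did a cluster with a median over 3 times that of all nuclei and at least 5 markers of a second class. Rod or cone clusters above 10% of the photoreceptor level for both rod and cone markers were set apart as mixed. The doublet caller's own threshold marked 0.063% of 1 sublibrary, so the other sublibrary's threshold, 0.0589, was used for both and marked 37.0% of nuclei, which were kept. The marked share differed by class, at 72.3% of horizontal, 60.8% of amacrine, 58.4% of bipolar, 56.0% of ganglion and 49.1% of Müller barcodes. It was 4.08% of cones and 3.92% of rods.

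Counts were summed per class. CPM has exact 95% Poisson intervals, log2 ratios exact conditional (Clopper-Pearson) intervals and shares Wilson intervals, all of counting error only. A count of 0 was replaced by 3 counts, as a bound. Scaling alternatives came from edgeR 4.0.16 and DESeq2 1.42.0. The calling rule was also run on simulated counts with counting error only. These held no admixture, doublets, free RNA or differences between retinas, so that run cannot show how the calls stand up to them. No p-value was made, as the retina names match no replicate.

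Members, lists and comparisons were chosen with earlier results of these data known. Of the 31 members 4 are not reported here, and counts and medians leave them out. Every other member with at least 20 UMIs is named with its level in its highest class. In opsin and position splits, members with at least 20 UMIs and a 2-fold ratio in each retina are named, and others named were chosen after their values were seen.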

Additional observations from a re-analysis of the deposited data

Results flagged for a closer look

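For gabra2a ENSABLG00000022149, 1 of the 4 members measured in both position splits, the tbx5-marked over vax-marked difference ran one way in cones and the other way in Müller-like nuclei, in each retina. The difference between the classes was not tested. The log2 ratios were 0.17 and 0.03 in the cones of retina 1 and retina 2, and -0.48 and -1.21 in Müller-like nuclei, so cones minus Müller was 0.72, on 5 UMIs in tbx5-marked Müller-like nuclei. Over both retinas the ratio was 0.10 (-0.47 to 0.64) in cones and -0.62 (-2.35 to 0.77) in Müller-like nuclei, so both intervals included 0, as did those of each retina. The gene belongs to the cone set. Cone marker genes had 1130 CPM in tbx5-marked Müller-like nuclei, against 2237 CPM in vax-marked ones, and rod markers had 1434 CPM, against 3629 CPM. The part of this in the opposite direction was not tested.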

How the results depend on the processing

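No paired analysis was possible because the 2 retina names match no replicate of the labels and no result comes from a test. Levels or ratios within each retina name are given for many values instead. The GABA-marked over glycine-marked amacrine comparison gave no value, since slc6a5 had 1 UMI in amacrine-like nuclei and no symbol matched slc6a9.

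Over all alternatives 1153 of 1593 log2 ratios, 211 of 313 CPM values and 255 of 330 counts moved by less than their counting interval or less than 1.5 times, 11 ratios changed sign, and thinning to 1000 or 2000 UMIs moved 53 of 54 shares. Settings differed: CPM moved beyond its interval for 25 of 27 genes without high doublet scores, for 22 of 27 without admixed barcodes and for 22 of 27 by marker score, but for 2 of 27 under each scaling and 0 of 27 at a minimum of 1000 UMIs. Leaving out either retina gave a rho ratio of horizontal over amacrine of 0.95 to 1.86, 5 to 7 genes higher in horizontal nuclei, 0 to 1 higher and 0 to 1 lower in tbx5-marked cones, 1 to 3 higher and 1 to 4 lower in tbx5-marked Müller nuclei, and 1 to 2 higher and 0 to 2 lower in lws cones.

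Classing each nucleus by marker score, which left 60 bipolar nuclei, gave 5 genes lower in rods, 2 higher in bipolar, 8 in amacrine, 12 in horizontal and 7 in ganglion nuclei, and 4 lower in Müller nuclei. Bipolar over amacrine was then 2.24 for rho and -1.92 for glycine alpha, and horizontal over amacrine was 1.08 for rho. Signs changed for GABRR2 (0.70), gabrr2a (0.085), gabrr3a (0.27) and GABRD (0.23) in rods, GABRR1 ENSABLG00000007108 (-0.72) and GABRB2 (-0.33) in bipolar, and glra4b ENSABLG00000014754 (0.79) in horizontal nuclei.

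Without high doublet scores, rho was 2.48 for bipolar and 1.04 for horizontal over amacrine, glycine alpha was -3.08 for bipolar over amacrine, and 2 genes were higher in horizontal nuclei. The position splits then gave 1 gene higher and 1 lower in cones and 0 lower in Müller nuclei, and 1 was lower in lws and 1 in sws1 cones. Without admixed barcodes, rho was 3.39 and glycine alpha -2.88 for bipolar over amacrine, GABRB1 in bipolar (0.63) and GABRD in Müller nuclei (0.10) changed sign, 7 genes were lower in Müller nuclei and 1 in sws1 cones, and position gave 1 lower in cones, and 1 higher and 0 lower in Müller nuclei.

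With the very deep cluster counted as amacrine, a choice added after seeing the data, rho over amacrine was 0.41 for bipolar and 0.082 for horizontal nuclei, glycine alpha was -2.05, 1 gene was higher in bipolar and 1 in horizontal nuclei, 19 were lower in Müller nuclei, and GABRB2 in bipolar nuclei was -0.12. Resolution 1 formed no ganglion class, so it gave no value for that class, and gave 7 lower in Müller nuclei and 1.84 for rho in horizontal over amacrine. Resolution 3 gave -1.62 for glycine alpha in bipolar over amacrine and 0.019 for gabrb2a in bipolar nuclei.

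Median-of-ratios and TMM scaling shifted cone ratios by 0.17 and 0.19, bipolar ones by -0.14 and -0.13 and amacrine ones by -0.12 and -0.14, changed the sign of no recomputed ratio, and each left 2 genes higher in horizontal nuclei. The first left 1 lower in sws1 cones. A fold of 3 gave 4 higher in bipolar and 2 in horizontal nuclei, and 7 lower in Müller nuclei. Equal class weights gave 13 lower in rods and 14 in cones, and 5 higher in bipolar, 8 in amacrine and 2 in horizontal nuclei. Without its most abundant member, glycine alpha was -1.99 for bipolar over amacrine. At least 2 UMIs of 1 side gave 1 higher and 1 lower in cones and 1 higher and 3 lower in Müller nuclei, and the stricter opsin rule gave 0 higher in lws cones. The shares over all genes under these settings are not given, so the changed counts cannot be set against them. The cause of these changes was not tested.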
